A study of Mus musculus with 56 samples.

Results

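The cells described here are T cells of mouse liver tumours in which single-cell receptor sequencing found a beta chain and no alpha chain. A member was a barcode called a cell by the authors' processing that had at least 1 productive, high-confidence TRB sequence (the beta chain) and no productive, high-confidence TRA sequence (the alpha chain). By that rule 1556 of 7605 T cells were members, which is 20.5% (95% Wilson interval 19.6 to 21.4, counting error only). The other 6049 T cells had both chains and are called paired. The members are called beta-only cells, a name for what was detected and not for what the cell carries.

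The receptors came from 15 libraries of hepatocellular carcinoma from 14 mice. All tumours carried Myc together with luc (labelled MycLuc) or lucOS (labelled MycLucOS), constructs for luciferase without or with model T cell antigens. The second genetic element was NICD, the active intracellular part of NOTCH1, or sgp53, a guide that targets p53, a tumour suppressor. There were 3 female mice each of luc NICD, luc sgp53, lucOS NICD and lucOS sgp53, and 2 male lucOS NICD mice. Ages are not in the labels. Female lucOS sgp53 replicates 3 and 4 are a pair of libraries, T1 and T2 in their titles, of 1 mouse, and were averaged in every test. CD45 positive and CD45 negative cells were put back together in equal numbers before loading, so the number of T cells per library says little about the tumour. A library held 49 to 1282 T cells and 11 to 227 beta-only cells. The T cell identity rests on the receptor alone, since no gene expression was used. No TRG sequence appeared in any library.

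An alpha beta T cell receptor is a pair of chains, each made by joining gene segments in the thymus. The beta chain is built first, from V, D and J segments, and it pairs with a surrogate alpha chain while the cell divides. The alpha chain is built later from V and J segments, so daughter cells of 1 beta rearrangement can carry different alpha chains. The segments of the delta chain lie inside the alpha locus, and delta V genes can join to alpha J segments. Cells that share a beta chain down to the nucleotides of the CDR3, the hypervariable loop encoded across the junction, are treated as 1 clone. A mature alpha beta T cell needs both chains at its surface. A UMI, or unique molecular identifier, marks 1 captured RNA molecule.

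The CDR3 sequences below are shown because the results turn on these clones. They run 5′ to 3′ as deposited. Capitals mark the bases left between the stretch that matches the sequence most common for that V gene and the stretch most common for that J gene, so they show the junction. The first pair belongs to a clone of 5 cells in lucOS sgp53 female replicate 3, the largest clone with no TRA in any cell. Its second sequence was deposited as a TRD, and none of its bases fell outside the common stretches. The next pair belongs to a clone of 3 cells in lucOS sgp53 female replicate 1. The third pair is the largest clone of all, 127 cells in lucOS sgp53 female replicate 2. The last sequences are the beta chains of 2 other large clones and of a clone of 4 cells with no TRA.
TRBV13-3/TRBJ2-7, clone of 5: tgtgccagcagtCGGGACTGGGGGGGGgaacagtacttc
TRDV2-2/TRAJ58, same 5 cells: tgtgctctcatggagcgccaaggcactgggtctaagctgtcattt
TRBV31/TRBJ2-5, clone of 3: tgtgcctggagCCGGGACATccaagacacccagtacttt
TRDV1/TRAJ30, 2 of the same 3 cells: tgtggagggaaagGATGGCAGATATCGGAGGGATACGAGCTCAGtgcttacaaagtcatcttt
TRBV12-1/TRBJ2-7, clone of 127: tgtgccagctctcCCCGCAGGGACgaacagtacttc
TRAV9D-3/TRAJ17, alpha chain of the clone of 127: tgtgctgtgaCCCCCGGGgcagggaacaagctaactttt
TRBV12-2+TRBV13-2/TRBJ2-5, clone of 74: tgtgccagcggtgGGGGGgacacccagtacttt
TRBV14/TRBJ2-7, clone of 97: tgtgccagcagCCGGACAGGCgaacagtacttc
TRBV13-1/TRBJ1-2, clone of 4 with no TRA: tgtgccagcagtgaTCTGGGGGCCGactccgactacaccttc

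Every library held beta-only cells, at a share that ranged from 12.3% in lucOS sgp53 female replicate 3 to 33.8% in luc NICD female replicate 2, with a median of 22.4%. The mirror-image cells, with a TRA and no TRB, were 219 of 6268 cells with a TRA, or 3.49%. They ranged from 1.75% to 7.32% by library. A missing alpha chain was the more common of the 2 in 15 of 15 libraries.

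**Figure D1:**
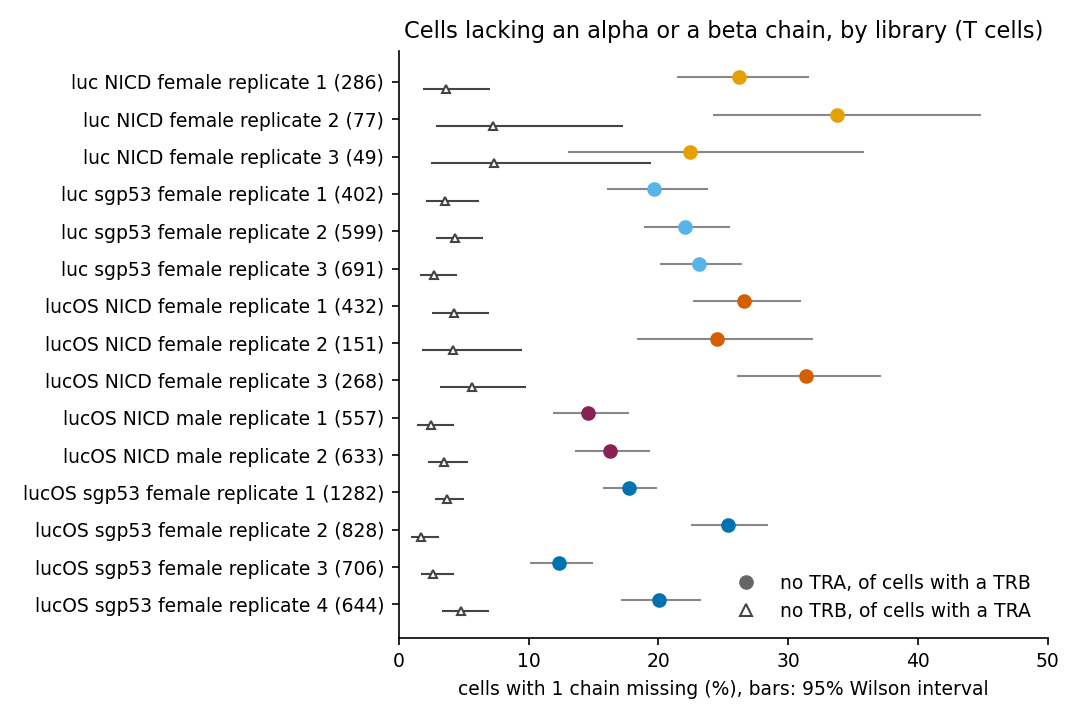
Share of cells lacking 1 chain (x axis, percent) in each of the 15 libraries (y axis, with the number of T cells in brackets); circles are cells with no TRA among cells with a TRB, coloured by group, triangles are cells with no TRB among cells with a TRA, and bars are 95% Wilson intervals. The circle lies to the right of the triangle in all 15 libraries.

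By mouse, beta-only cells made up 26.6%, 24.5% and 31.3% of T cells in female lucOS NICD tumours and 26.2%, 33.8% and 22.4% in luc NICD tumours. In luc sgp53 tumours they were 19.7%, 22.0% and 23.2%, and in lucOS sgp53 tumours 17.7%, 25.4% and 16.2%. The NICD and sgp53 values overlapped in both antigen settings. The male lucOS NICD mice, at 14.5% and 16.3%, lay below every female NICD mouse, and the lucOS sgp53 mouse with a pair of libraries, at 16.2%, lay between them.

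The beta-only share was 27.5% ± 3.50 (SD, n = 3 mice) in female lucOS NICD tumours and 27.5% ± 5.76 (n = 3) in luc NICD tumours. It was 19.7% ± 4.92 (n = 3) in lucOS sgp53 tumours and 21.6% ± 1.79 (n = 3) in luc sgp53 tumours. The 2 male lucOS NICD mice gave 15.4% ± 1.22. With the antigen as a stratum, NICD exceeded sgp53 by 6.80 percentage points (exact permutation test, 12 female mice, two-sided p = 0.025). After Benjamini-Hochberg adjustment over the 10 tests of beta-only cells the p was 0.05, which is not under the threshold of 0.05. The difference was 5.87 points in luc and 7.74 points in lucOS tumours. Female NICD libraries held 49 to 432 T cells, against 402 to 1282 in female sgp53 libraries, and paired cells had a median of 3 to 5 TRA UMIs against 4 to 7. When shares were standardised to the same TRB UMI classes, the difference was 2.92 points (exact permutation test, p = 0.235). That setting was added after the data were seen, and the part of TRB UMIs in the difference was not tested further.

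No difference by antigen was detected. The mean of lucOS mice was 23.6% and that of luc mice 24.5%, a difference of -0.928 points (exact permutation test, p = 0.695). Males were lower than females by 12.1 points among lucOS NICD mice, and the groups did not overlap. With 2 against 3 mice the exact permutation p of 0.1 is the smallest possible. The male libraries were also larger, with 557 and 633 T cells, so sex and library cannot be told apart. The pair of libraries from 1 mouse differed as much as some groups did, at 12.3% (interval 10.1 to 14.95) and 20.03% (interval 17.1 to 23.3).

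Fewer beta chain UMIs were captured in beta-only cells. Whether these cells held less RNA or less of it was captured was not tested. The median TRB count per library was 5 to 9 UMIs in beta-only cells and 6 to 16 in paired cells, lower in beta-only cells in 13 of 15 libraries and equal in the other 2. In lucOS sgp53 female replicate 3 the medians were 7 and 16, and in replicate 4 they were 5 and 13. On the log2 scale the mean difference per mouse was -0.47 ± 0.31 (SD, n = 14), or 1.39-fold lower, and it was below 0 in 12 of 14 mice (exact sign-flip permutation test, adjusted p = 0.00244). The 2 exceptions, at 0.11 and 0.04, were luc NICD female replicates 1 and 2. TRB read counts gave a log2 difference of -0.64 ± 0.74 (SD, n = 14; exact permutation test, adjusted p = 0.00326). Within classes of equal TRB UMIs that read difference shrank to -0.18 (exact permutation test, unadjusted p = 0.322). Reads per UMI had medians of 551 to 2308 in beta-only cells and 552 to 2210 in paired cells, and the beta-only median was higher in 10 of 15 libraries. The ranges hide lucOS NICD female replicate 3, at 1178.5 in beta-only and 2126.6 in paired cells. Its log2 read difference, -2.91, was the largest of any library. With 1 library left out the read difference ran from -0.71 to -0.47 and kept its call.

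The same contrast held between cells of 1 clone. In 196 clones with cells of both kinds, TRB UMIs averaged lower in the beta-only cells of 137. Over the 12 mice with at least 3 such clones the log2 difference was -0.65 ± 0.46 (SD), below 0 in 11 mice (exact permutation test, p = 0.000977), a comparison added after the data were seen.

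Pooled over libraries, the share of T cells with no TRA peaked at 3 TRB UMIs and then fell with every further class. It was 23.2% of 332 cells at 2 UMIs, 41.7% of 527 at 3, 34.6% of 1031 at 4 to 5 and 24.4% of 1298 at 6 to 8. It went on to 18.2% of 1618 cells at 9 to 13, 13.2% of 1226 at 14 to 20 and 8.83% of 1449 at 21 or more. Beta-only cells with many TRB UMIs thus occurred, 128 in the top class, and 43.0% of these held a TRA sequence that was not productive. That was the highest of the classes, against 25.1% over all beta-only cells. Single libraries departed from the pooled course. In lucOS sgp53 female replicate 2 the share was 18.8% at 9 to 13, 23.7% at 14 to 20 and 21.3% at 21 or more. In luc sgp53 female replicate 3 it was highest at 4 to 5 UMIs, 50.7%. None of the 124 T cells with 1 TRB UMI was beta-only. Among barcodes the authors did not call cells, 303 had a TRB and no TRA, 58 of them at 1 TRB UMI, so the cell call sets that 0. Another 197 of the 303 had 1 TRB of 2 or more UMIs, against 52 of 174 barcodes not called that had both chains. The cell call thus also removed beta-only barcodes above 1 UMI, and its part in the peak at 3 UMIs was not tested. With every barcode kept, called or not, 1859 of 8082, or 23.0%, were beta-only.

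**Figure D2:**
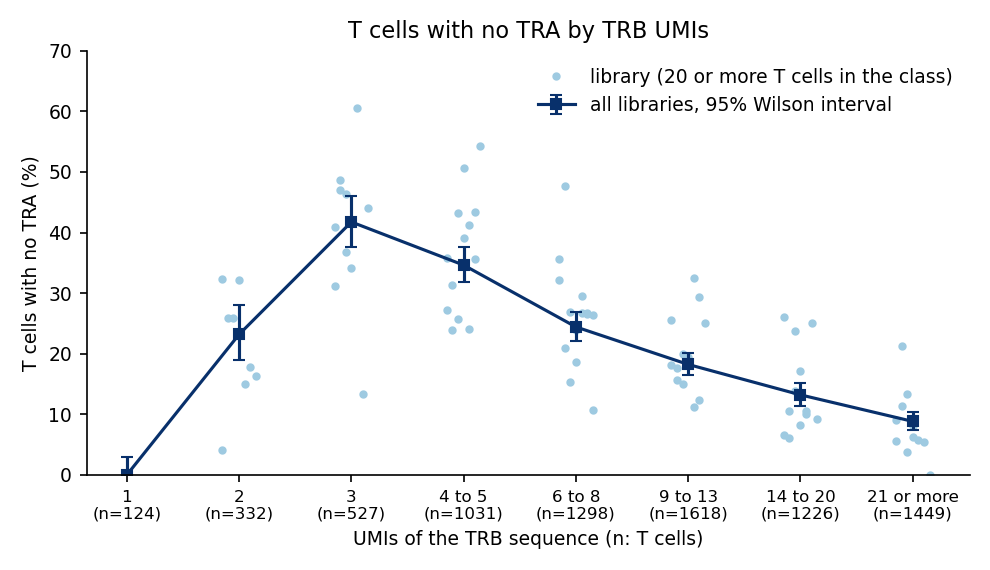
Share of T cells with no TRA (y axis, percent) by the UMIs of the TRB sequence (x axis, with the number of T cells); squares with 95% Wilson bars pool all libraries and pale points are single libraries with at least 20 T cells in the class. The pooled share peaks at 41.7% at 3 UMIs and falls to 8.83% at 21 or more.

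Paired cells had fewer UMIs for the TRA than for the TRB, and whether capture differed between the chains was not tested. Their median was 5 TRA UMIs against 11 TRB UMIs, and TRA was below TRB in 4853 of 6049 cells, or 80.2%. A single UMI supported the TRA of 593 paired cells (9.80%) and the TRB of 124 (2.05%). The TRA median was below the TRB median in all 15 libraries.

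Barcodes with more than 1 beta chain were absent from the members. None of the 1556 beta-only cells had 2 or more productive TRB, and 344 of 6049 paired cells did. Among barcodes not called cells, 48 of the 303 with a TRB and no TRA had 2 or more TRB. The cell call thus fixes the count in beta-only cells, and no difference from paired cells is read from it.

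No difference in clonal expansion between beta-only and paired cells passed the test. Of all beta-only cells 569, or 36.6%, shared their beta chain with another cell of the library, against 2507 paired cells, or 41.4%. The difference per mouse was -5.37 points ± 11.1 (SD, n = 14), and it was above 0 in 5 mice, below in 8 and 0 in 1 (exact permutation test, p = 0.0952, adjusted p = 0.143). With TRB UMI classes matched it was -0.266 points (exact permutation test, p = 0.932). By clone size the beta-only share was 21.8% of cells seen once, 23.7% in clones of 2, 21.8% in clones of 3 to 4 and 15.8% in clones of 5 to 9. It was 18.7% in clones of 10 to 19, 17.4% in clones of 20 to 49 and 15.6% in clones of 50 or more. One library weighs on the largest clones: without lucOS sgp53 female replicate 2 the last 2 shares were 12.1% and 9.97%.

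Most beta-only cells of an expanded clone had a clone mate that did carry an alpha chain. This was so for 492 of 569, or 86.5%, and the corresponding figure for paired cells was 2441 of 2507, or 97.4%. Averaged over the 11 mice with at least 10 such cells of each kind, 79.2% of beta-only and 94.6% of paired cells had a paired mate. The difference of -15.4 points ± 12.2 (SD) was below 0 in 10 of 11 mice (exact permutation test, adjusted p = 0.00488). Male lucOS NICD replicate 1 was the exception, where all 43 beta-only cells of expanded clones had a paired mate.

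Beta-only cells gathered in the same clones in the counts below, which pool libraries of different shares and were not tested. The test of paired mates above takes clones of all sizes together, so clone size enters it too. In clones of 2 cells, 50 of 103 beta-only cells (48.5%) had a beta-only mate, against 53 of 331 paired cells (16.0%). Of these 217 clones, 139 were paired in both cells, 53 in 1 and 25 in neither. Among 259 clones of 3 or more cells, 151 held at least 1 beta-only cell, 108 held none, and 8 consisted of beta-only cells alone.

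Large clones differed widely in how often the alpha chain was missing. In 35 clones of 20 or more cells, from 10 libraries, the beta-only share ran from 0% to 63.6% with a median of 11.3%. In 15 of them it was under 10%, and in 7 it was above 30%.

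The largest clone, TRBV12-1/TRBJ2-7 with 127 cells, lacked a TRA in 42, or 33.1% (interval 25.5 to 41.6). All 85 of its paired cells carried the TRAV9D-3/TRAJ17 chain printed above, at a median of 4 UMIs. In the same library TRBV16/TRBJ2-5 lacked it in 18 of 45 cells, TRBV12-2+TRBV13-2/TRBJ2-7 in 21 of 44 and TRBV12-2+TRBV13-2/TRBJ2-1 in 14 of 22. These 3 also paired with TRAV9 genes, namely TRAV9-2, TRAV9-2 and TRAV9-4.

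In the other 4 of the 5 largest clones the share ran from 4.05% to 16.7%. TRBV14/TRBJ2-7 in lucOS sgp53 female replicate 1 lacked a TRA in 11 of 97 cells, or 11.3% (interval 6.45 to 19.2). TRBV12-2+TRBV13-2/TRBJ2-5 in replicate 4 lacked it in 3 of 74, or 4.05% (interval 1.39 to 11.3). TRBV12-2+TRBV13-2/TRBJ2-7 in lucOS NICD female replicate 3 lacked it in 10 of 60, and TRBV13-3/TRBJ1-3 in lucOS sgp53 female replicate 1 in 8 of 58. These clones come from libraries whose own shares differ, so the clones are given side by side without a test.

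**Figure D3:**
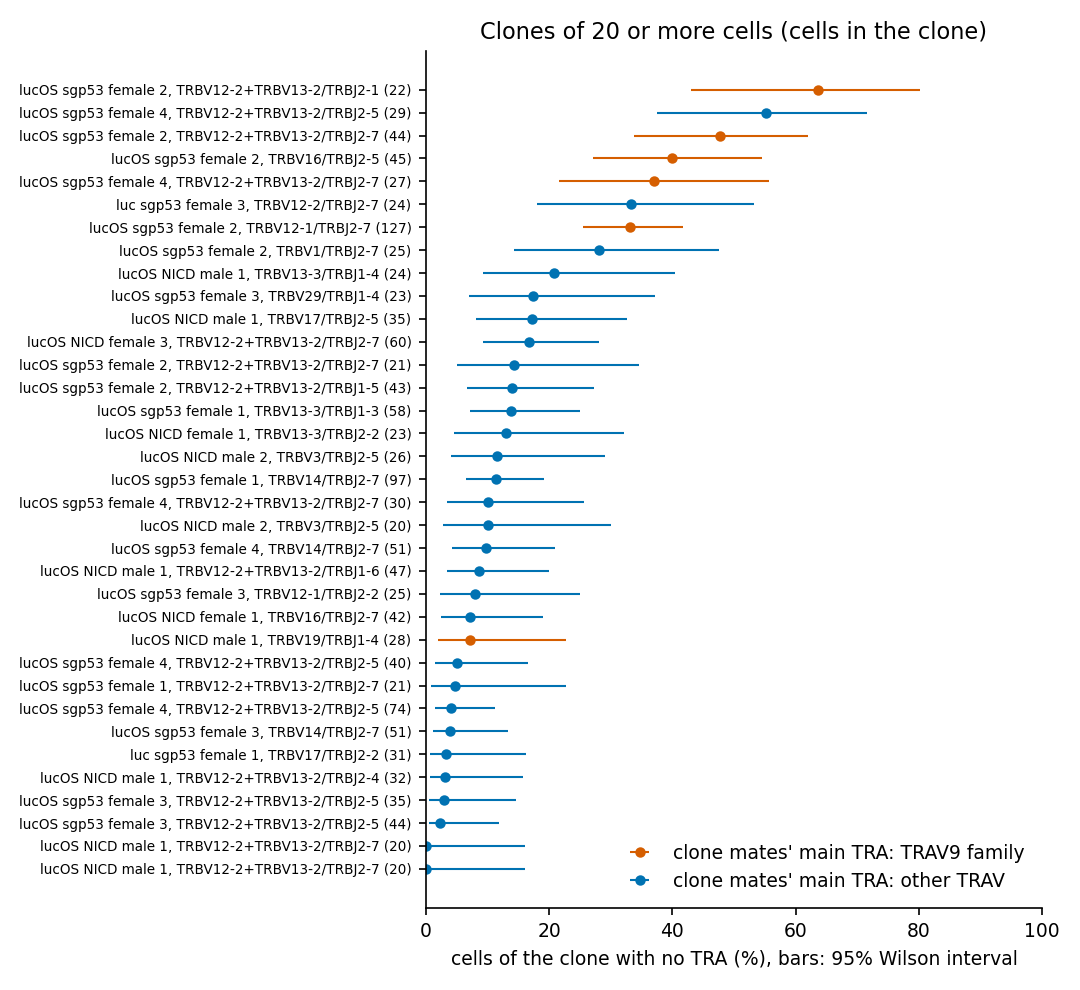
Share of cells with no TRA (x axis, percent) in the 35 clones of 20 or more cells (y axis: library, beta chain genes and, in brackets, cells), with 95% Wilson bars; orange marks clones whose paired cells mainly carry a TRAV9 gene. Shares run from 0% to 63.6%, and 5 of the 6 orange clones lie above 30%.

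The pair of libraries from 1 mouse shared 8 clones with at least 5 cells in each. The TRBV14/TRBJ2-7 clone had 51 cells in both, with 2 beta-only in replicate 3 and 5 in replicate 4. The TRBV12-2+TRBV13-2/TRBJ2-5 clone of 74 cells in replicate 4 had 35 in replicate 3, where 1 was beta-only. A further TRBV12-2+TRBV13-2/TRBJ2-5 clone, whose mates carried TRAV3-3/TRAJ49, had 2 of 10 beta-only cells in replicate 3 and 16 of 29, or 55.2%, in replicate 4. Over the 8 clones the share ran from 0% to 20% in replicate 3 and from 4.05% to 55.2% in replicate 4, and the TRAV3-3 clone was the highest in both. Looking into the other library gave a paired mate to 11 of the 124 beta-only cells of this mouse that had none in their own.

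The alpha V gene of the clone mates was examined next, over clones of 3 or more cells, a grouping chosen after the large clones had been seen. Beta-only cells made up 34.2% of 444 cells in the 32 clones with TRAV9 genes and 13.2% of 2171 cells in the 219 clones with other genes. Without lucOS sgp53 female replicate 2 the shares were 23.3% of 180 cells and 12.97% of 1897. TRAV16, TRAV3 and TRAV6 clones, at 22.2%, 21.3% and 21.5%, then lay beside TRAV9. Averaged over clones, TRAV16 (23.4%), TRAV3 (22.8%) and TRAV6 (20.7%) then exceeded TRAV9 (20.1%). TRAV9 clones had the higher share in 6 of 9 libraries that held both kinds. With all libraries, other families ran from 5.91% for TRAV4 and 7.69% for TRAV7 to 21.2% for TRAV6 and 21.5% for TRAV16. The level of the alpha chain was set against the share in clones of 5 or more cells with a TRA in at least 1. The 8 clones whose main TRA had a median under 3 UMIs averaged 25.4% beta-only cells. The average was 19.6% in 56 clones at 3 to under 5, 13.5% in 48 at 5 to under 8 and 9.97% in 27 at 8 or more.

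Some alpha sequence was found in 455 of the 1556 beta-only cells, or 29.2%, counting any piece that was assigned to TRA or held a TRAJ or TRAC segment. The other 1101, or 70.8%, had none. TRA sequences that were not productive were present in 390, or 25.1%. Such sequences can come from the other allele, and paired cells held them too, 1310 of 6049, or 21.7%. Per mouse the difference was 3.99 points ± 9.04 (SD, n = 14), higher in 11 mice (exact permutation test, p = 0.122, adjusted p = 0.153). A cell whose only TRA is unproductive is beta-only by the rule. The rule feeds this difference, so paired cells are not a clean background and nothing about the cells is read from the test.

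Partial TRA sequences were more frequent in beta-only cells. A TRA that did not span the whole V region was seen in 180 beta-only cells, or 11.6%, and in 302 paired cells, or 4.99%. Per mouse the difference was 5.55 points ± 6.21 (SD, n = 14), higher in 12 mice (exact permutation test, unadjusted p = 0.000488), a test added after the data were seen. A cell whose only TRA is partial is beta-only by the rule. The rule thus feeds this difference, and nothing about the cells is read from the test. The widest gap was in lucOS sgp53 female replicate 2, at 28.6% against 4.37%. A clone mate's own TRA CDR3, identical in every base, was held by 65 beta-only cells on a sequence not counted as productive. They were 13.2% of the 492 beta-only cells with a paired mate, and 25 of 339, or 7.37%, without lucOS sgp53 female replicate 2. In paired cells with a paired mate it was 11 of 2441, or 0.451%, a gap that the rule also feeds. Of the 65, 59 lay on sequences that were not full-length, with a median length of 426 bases against 558 for productive TRA sequences. These cells spread over 26 clones and 12 libraries, although 40 of them came from lucOS sgp53 female replicate 2. In the clone of 127 cells it was 17 of the 42 beta-only cells.

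Among beta-only cells with a TRAV9 mate, 49 of 159 (30.8%) held the mate's CDR3, against 16 of 333 (4.805%) with a mate of another family. Without lucOS sgp53 female replicate 2 these were 11 of 48 (22.9%) and 14 of 291 (4.81%). A further 78 beta-only cells (5.01%) had an open CDR3, in frame and without a stop codon, on a sequence that was not full-length. Of these, 5 had a paired mate and did not hold its CDR3, and 69 were in clones of 1, with no mate to compare. In paired cells a further 130 (2.15%) held an open CDR3 on such a sequence. In 206 beta-only cells (13.2%) the unproductive TRA was full-length, and in 86 of these its CDR3 was open. A full-length unproductive TRA was more frequent in paired cells, at 1014 (16.8%). An open CDR3 of any of these kinds was held by 229 beta-only cells, and counting it as an alpha chain would leave 17.4% of T cells beta-only. Paired cells held such sequences too, so 17.4% is not a corrected share.

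A small set of beta-only cells carried a chain that the tables file under TRD. No TRD sequence was marked productive in any library, so the rule did not count them. In 29 of 1556 beta-only cells, or 1.86% (interval 1.30 to 2.66), a full-length sequence with an open CDR3 joined a TRDV gene to a TRAJ gene. All 29 ended in TRAC, the constant region of the alpha chain. In paired cells it was 17 of 6049, or 0.281% (interval 0.176 to 0.450), and all 17 ended in TRAC as well. The V gene was TRDV1 in 20 of the 29 and TRDV2-2 in 9. The chains had a median of 4 UMIs, from 1 to 48, and the TRA of paired cells had a median of 5.

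The difference between the kinds was 1.29 points ± 1.44 (SD, n = 14), higher in beta-only cells in 9 mice, equal in 4 and lower in 1 (exact sign-flip permutation test, p = 0.00391, unadjusted and added after the data were seen). A cell with such a chain and no TRA is beta-only by the rule. The rule thus feeds this difference, and nothing about the cells is read from the test, with or without the clone of 5. The chains were found in beta-only cells of 10 libraries and 24 clones. The J genes, examined after they had been seen, were concentrated: 16 of the 29 used TRAJ56, TRAJ57 or TRAJ58, which lie among the TRAJ genes nearest to the V genes, against 290 of 6268 cells with a productive TRA, or 4.63%. In paired cells 6 of the 17 TRDV chains used these J genes. Clones weigh on that count, since 5 of the 16 are 1 clone.

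**Figure D4:**
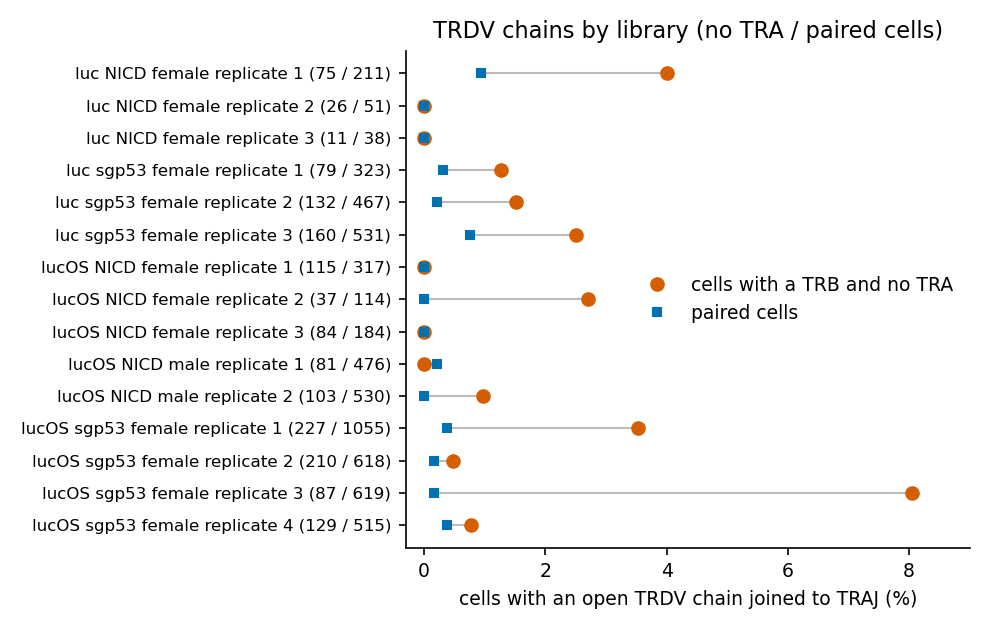
Share of cells with a full-length, open TRDV chain joined to a TRAJ gene (x axis, percent) in each library (y axis, with the numbers of beta-only and paired cells in brackets); orange circles are beta-only cells and blue squares paired cells. The highest value, 8.05% in lucOS sgp53 female replicate 3, includes the clone of 5 cells.

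The clone of 5 cells illustrates this. All 5 had no TRA, and all 5 carried the same TRDV2-2/TRAJ58 CDR3 printed above, on 4 to 12 UMIs beside 5 to 19 TRB UMIs. Its TRB CDR3 appeared in no other library, and its TRDV2-2 CDR3 was found on 1 sequence elsewhere. Without this clone the difference over mice was 1.09 points (exact permutation test, p = 0.00391). In the TRBV31/TRBJ2-5 clone, both beta-only cells carried the TRDV1/TRAJ30 chain printed above, and the remaining cell had a TRA. The other clone of at least 4 cells with no TRA, TRBV13-1/TRBJ1-2 in lucOS NICD female replicate 3, had 4 cells and no such chain.

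Invariant receptors were looked for among clone mates. TRAV11 with TRAJ18, the alpha chain of invariant natural killer T cells, was present in 133 paired cells, and 3 beta-only cells shared a beta chain with them. TRAV1 with TRAJ33, the alpha chain of mucosal-associated invariant T cells, was present in 130 paired cells, with 11 beta-only clone mates. Over all receptors, 492 beta-only cells had a paired mate, beside 6049 paired cells. The size of the clones concerned was not counted, so no share is read from these counts. An unproductive TRA of TRAV11 with TRAJ18 was held by 4 beta-only cells, and one of TRAV1 with TRAJ33 by 0.

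No beta chain gene passed the test between beta-only and paired cells. Of 20 TRBV genes tested by exact permutation, 0 passed an adjusted p of 0.05 (percent called 0; 2 had an unadjusted p under 0.05). The 5 with the smallest p are given next. TRBV14 made up 2.81% of beta-only and 4.33% of paired cells and was lower in 12 of 14 mice (exact permutation test, adjusted p = 0.0708). TRBV12-2 was 5.96% and 4.66%, TRBV1 was 6.76% and 4.99%, and TRBV13-3 was 9.51% and 6.87% (exact permutation tests, adjusted p = 0.341, 0.341 and 0.488). The label TRBV12-2+TRBV13-2, a join of both names as deposited, was 13.5% and 16.4% (exact permutation test, adjusted p = 0.488). TRBV14 reached an adjusted p of 0.00488 when TRB UMIs were matched, and the difference was then -1.32 points. With each clonotype counted once it was -0.254 points (exact permutation test, adjusted p = 0.662).

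**Figure D5:**
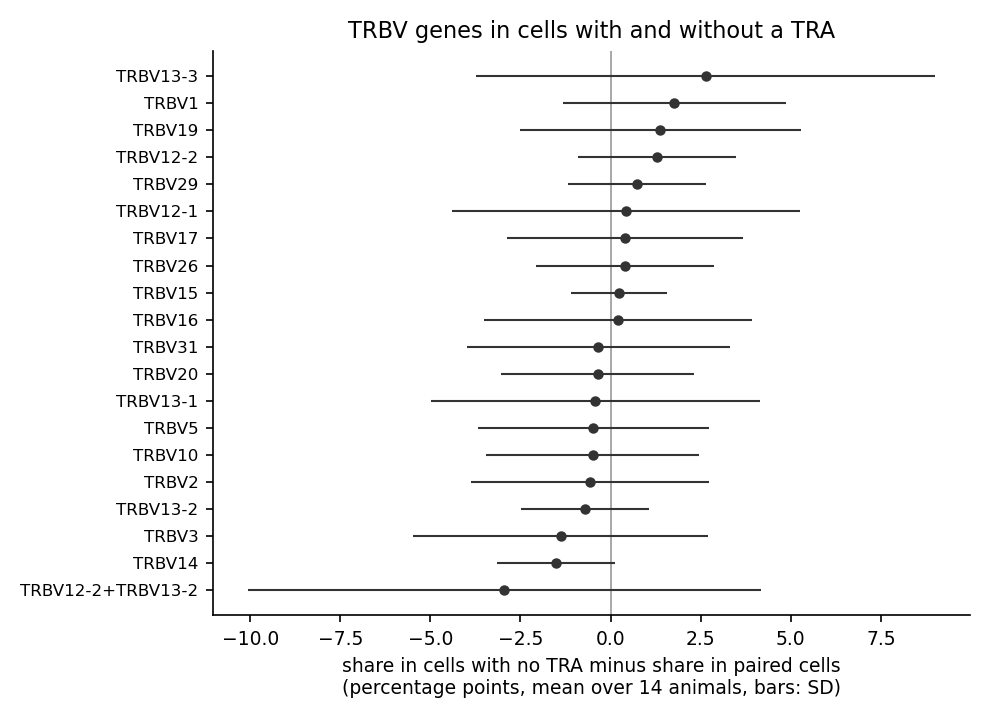
Difference in the share of each TRBV gene between beta-only and paired cells (x axis, percentage points) for the 20 genes tested (y axis); points are means over 14 mice and bars are the SD. Means lie between -2.95 and 2.64 points, and the bars of all 20 genes cross 0.

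Of 12 TRBJ genes tested by exact permutation, 0 passed (percent called 0; 3 had an unadjusted p under 0.05). TRBJ1-1 was 10.2% in beta-only and 7.65% in paired cells, TRBJ2-4 was 5.39% and 7.80%, and TRBJ2-7 was 20.9% and 25.4% (exact permutation tests, adjusted p = 0.0967, 0.127 and 0.182). TRBJ1-6 was 2.59% and 3.27%, and TRBJ1-4 was 7.42% and 6.28% (exact permutation tests, adjusted p = 0.655 for both). No difference in the length of the beta CDR3 was detected. Its median was 42 bases in both kinds, and the mean difference per mouse was 0.433 bases ± 1.13 (SD, n = 14; exact permutation test, p = 0.176, adjusted p = 0.196).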

How the data were processed

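Single-cell T cell receptor libraries were analysed. The authors deposited tables of assembled receptor sequences in which each sequence has its UMI and read counts and their own calls of cells, chains, productive and full-length sequences. Cell Ranger, Seurat and the mouse build mm10 are named per the submitters' processing notes, with no version given in the sources used here. The other libraries of the series were not used here. The TRB with the most UMIs stood for a cell. A clone was 1 combination of TRBV gene, TRBJ gene and CDR3 nucleotides in a library. Doublets were not removed beyond the authors' cell call. In all, 39 barcodes were called T cells in 2 libraries each, 16 of these 78 cells were beta-only, and 1 of the barcodes had the same TRB CDR3 in both.

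Beta-only cells were compared with paired cells of the same library, given at least 10 cells of each kind. The differences were averaged per mouse and tested by two-sided exact permutation of their signs. Conditions were compared by exact permutation of labels over mice. The 10 tests were adjusted together (Benjamini-Hochberg), and TRBV and TRBJ genes, with a mean share of at least 1%, within their tables. Among the 10 is a test on 2 or more TRB that is not read because the cell call fixes it. Its small p makes most of the other adjusted p smaller than they would be without it. The test on an unproductive TRA, also among the 10, is not read either, because the rule feeds it. UMI and read counts per cell set the precision, and intervals are 95% Wilson intervals. TRBV and TRBJ genes named are the 5 with the smallest p where none was called. Clones named are the 5 largest and those of at least 4 cells without a TRA, and other clones named were chosen after their values were seen. Members, rule, tests and lists were chosen with earlier results of these data known. The common stretches behind the capitals needed at least 5 sequences and a base in at least 50% of them; for TRDV2-2 and TRDV1 they rest on 13 and 38 distinct sequences. The gene usage step was tested on simulated data. The tools were scipy 1.17.1, pandas 2.3.3 and numpy 2.4.6 under Python 3.11.15.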

Additional observations from a re-analysis of the deposited data

How the results depend on the processing

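Calls were judged by the adjusted p. The differences in TRB UMIs and paired mates kept their direction and call under every alternative run. The read difference lost its call with TRB UMI classes matched (-0.18 log2). NICD against sgp53, at an adjusted p of 0.05, passed under 3 planned settings: any TRA counted (6.94 points), TRB of at least 2 UMIs (7.42) and the pair of libraries separate (7.25). Of settings added after the data were seen, it passed with any open TRA CDR3 counted as alpha (6.88) and with cells of clones of 1 only (9.30). Leaving out 1 library gave 5.23 to 8.21 points, passing without luc NICD female replicate 3 or lucOS sgp53 female replicate 2. lucOS against luc, -0.928 points, changed sign with standardised shares (0.218) and clones of 1 only (0.149), and ran from -2.33 to 0.643 with 1 library left out (above 0 without luc NICD female replicate 2). The beta-only share was 15.3% with any TRA counted, 19.01% at 4 or more TRB UMIs, 17.4% with any open TRA CDR3 counted and 23.0% over all barcodes, and 19.9% to 21.3% with 1 library left out. The unproductive TRA difference ran from 2.50 to 5.37 points with 1 library left out, passing without lucOS NICD female replicate 1. The rule feeds that difference, so nothing is read from this pass. TRBV genes called numbered 2 without libraries under 100 T cells (TRBV13-3 and TRBV2), 1 with the pair separate (TRBV14), 2 with UMI classes matched (TRBV14 and TRBV15), and 0 to 1 with 1 library left out (TRBV14 without luc NICD female replicate 1 or lucOS NICD female replicate 1). TRBV12-2+TRBV13-2 changed sign with each clonotype once (0.210 points). TRBJ genes called numbered 0 to 1 with 1 library left out (TRBJ1-1 without lucOS NICD female replicate 1), 1 over all barcodes and 1 with any open TRA CDR3 counted (TRBJ1-1 in both). Except for matched reads, the cause of these changes was not tested. Alternatives that removed the measured quantity gave no value: unproductive TRA with any TRA counted, and 2 or more TRB without such barcodes. No paired analysis was possible because the replicate numbers do not link mice across groups; beta-only and paired cells were already compared within libraries.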
